A study of Bos taurus with 20 samples.

Results

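The IFIT and IFI families are interferon-induced genes, and 10 of them, IFIT1, IFIT2, IFIT3, IFIT5, IFI6, IFI27, IFI44, IFI44L, IFI16 and IFI35, were followed in maternal whole blood. They were chosen by symbol, mapped to the Entrez identifiers of the count files with a cattle gene table, and 9 of the 10 symbols were found among the 37063 genes of the files. IFIT1 matched no symbol or synonym of the table and was not analysed here. IFIT2 and IFIT3 had 0 counts in every cow. The other 7 members passed the filter of at least 10 counts in at least 5 cows, as did 16206 genes in all.

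Blood was collected in Tempus tubes, which lyse the cells and stabilize their RNA, at gestation day 63 from 20 recipients, and each cow gave 1 library. Every cow carried a female beef-breed fetus from an in vitro produced embryo of X-sorted semen. The study's methods call the recipients lactating dairy cows, whereas its list of datasets gives the breed as Angus. All cows belonged to 1 group and the only variable used here was calf birth weight (BW). It was 45.0 ± 10.1 kg (SD, n = 20) and ran from 30 to 72.5 kg. The study gives the age of the recipients as a range over several years and also recorded dam parity. Neither was used here. P-values measure the spread between these libraries.

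Interferons bind receptors on the cell surface and, through kinases such as JAK1 and TYK2 and transcription factors, switch on a large set of antiviral genes. IFIT proteins bind RNA whose 5′ end lacks the cap marks of the host, IFI16 senses DNA, and IFI6, IFI27, IFI44 and IFI44L are interferon-induced effectors that are widely used as marks of interferon exposure in blood. In ruminants the conceptus itself secretes an interferon, interferon tau, in early pregnancy, and blood leukocytes of the dam respond to it.

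Total counts were between 24632077 and 39892111 per cow. The library labelled with the 39 kg calf differed from all others: across 4642 genes with at least 1000 counts in every library, its normalised counts were a near-equal mixture (weights 0.0996 to 0.128) of the libraries of the other 9 calves lighter than 45 kg (30 to 43 kg). Its ratio to the plain mean of those 9 had a median of 0.994, and 99.7% of the genes lay within 5% of that mean. The squared deviation of its counts from the fitted mixture, divided by the fitted count, averaged 0.234 per gene, where counting error alone gives about 1, against 29.1 to 229 in the other 19 libraries fitted the same way. It had the highest value of all libraries in 0 of 16269 genes. Why was not tested. P-values that keep this library count it as a separate cow, although its counts follow those of the 9 others. The members' levels, slopes, pairs and correlations with BW are given with and without this library, and other values keep it unless stated. The cow of the 30 kg calf had the lowest total count, and it is named wherever it decided a value.

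The levels of the 7 measured members are given as CPM, the count scaled to library size after TMM normalization. IFIT5, which binds viral RNA with a 5′ triphosphate, had 36.0 CPM in the lowest cow, a median of 59.3 and 139 in the highest. IFI6, a small membrane protein that limits virus replication, had 43.1, 76.0 and 328 CPM, and IFI27, a small membrane protein of the same protein family, had 2.05, 3.69 and 21.5 CPM. IFI27 was also the member with the fewest reads, with a median of 111.5 counts. IFI44 had 16.6, 22.1 and 92.1 CPM and its neighbour and relative on chromosome 3, IFI44L, had 33.7, 39.6 and 88.7 CPM. IFI16, the DNA sensor, had 242, 309 and 385 CPM. IFI35, which pairs with the interferon-induced protein NMI, had 44.2, 54.9 and 79.5 CPM. Since only genomic spans and no transcript lengths were at hand, these levels were not compared between genes. Without the library of the 39 kg calf no lowest or highest value changed, and the medians moved by at most 6.62%.

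In all 7 members the highest value was that of the cow of the 30 kg calf. Over all genes, 5.98% had their highest value in this cow. Its IFI27 level was 5.84 times the median of the 20 libraries, its IFI6 level 4.32 times, its IFI44 level 4.17 times, its IFIT5 level 2.34 times and its IFI44L level 2.24 times. IFI35 was 1.45 times and IFI16 1.25 times the median there. Against the median without the 39 kg library the first 5 ratios were 5.91, 4.35, 4.30, 2.51 and 2.25. Thus 5 of the 7 members exceeded 2 times the median in this cow, beside 3.54% of all genes, and no other cow exceeded 2 times the median in any member. Leaving out the 39 kg library, the next cow had 99.5 CPM of IFI6 (36 kg calf), 5.98 CPM of IFI27 (43 kg calf) and 35.3 CPM of IFI44 (37 kg calf), far below. The next values of IFIT5 and IFI44L were 77.4 and 56.3 CPM, and those of IFI16 and IFI35, at 355 and 65.4 CPM, were nearer to the highest.

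**Figure D1:**
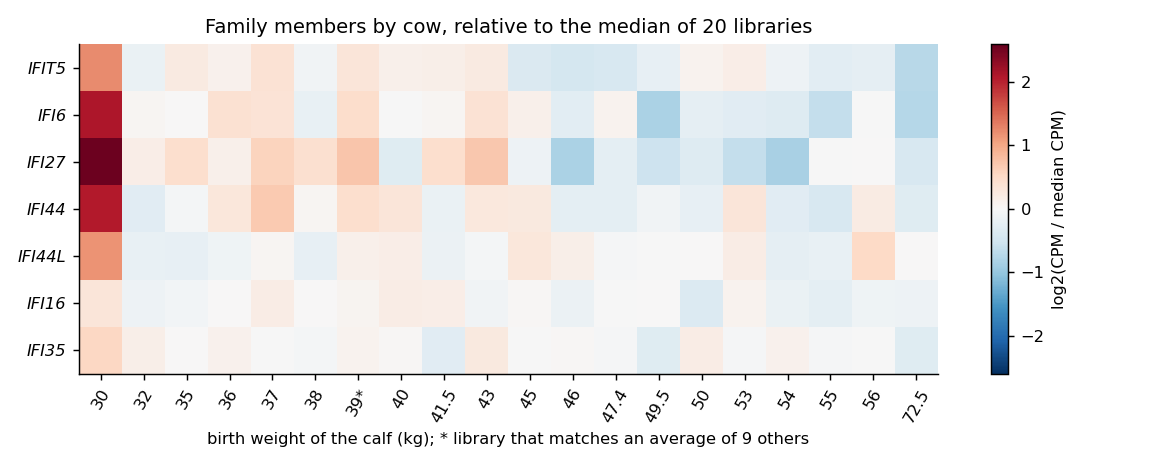
Heat map of the log2 ratio of CPM to the median of 20 libraries, with 1 row per member and 1 column per cow ordered by the birth weight of the calf in kg. The column of the 30 kg calf is the highest in all 7 rows, from 1.25 times the median in IFI16 to 5.84 times in IFI27; the asterisk marks the library that matches an average of 9 others.

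In 5 of the 7 members the spread between cows was much larger with that single animal than without it. The coefficient of variation (CV) over 20 libraries was 88.5% for IFI27, 68.8% for IFI6, 61.4% for IFI44, 34.6% for IFIT5 and 28.9% for IFI44L, against a median of 15.6% over all genes tested. With the 30 kg calf's cow left out these CVs were 33.9%, 24.5%, 22.5%, 20.2% and 14.7%. The median over all genes was then 15.6%, and only IFI44L lay below it among these 5. Without the 39 kg library as well the 5 CVs were 32.5%, 23.6%, 22.3%, 19.9% and 15.1%. IFI16 and IFI35 varied less, with CVs of 11.5% and 13.97% over 20 libraries, and 10.3% and 10.5% when the 30 kg calf's cow was left out. Counting error alone gives a CV of 9.47% at the median count of IFI27 and 1.01% to 3.68% at those of the other members.

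Marker scores of blood cell types took different ranks in the cow of the 30 kg calf. Its mean z-score over 7 B cell markers was the highest of 20 libraries, at 1.39, with 2 of the 7 markers highest in this cow. Its dendritic cell score ranked 2, at 0.401, with 2 of 7 markers highest in this cow. Its natural killer cell score ranked 19, its monocyte score 14, its neutrophil score 10 and its T cell score 16 of 20. The most abundant markers of these lists, CD22 (B cells), VCAN (monocytes), CSF3R (neutrophils) and CD3E (T cells), had 537, 429, 1834 and 204 CPM in this cow, beside medians of 435, 470, 1840 and 218 CPM. Over the 20 libraries the Spearman correlation of the members' mean z-score with the marker scores of 10 blood cell lists lay between -0.305 (natural killer cells) and 0.326 (dendritic cells), and was 0.0361 for monocytes and -0.0586 for neutrophils; it was -0.159 with the total count. The libraries share their normalization across all of these measures. In whole blood, fewer cells of a type and less RNA per cell cannot be told apart, and the part of cell composition in the members' levels was not tested.

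IFIT2 and IFIT3 encode RNA-binding proteins that act in a complex with IFIT1. If their reads could be counted, 0 counts would allow up to 3 counts per library, or 0.0752 to 0.122 CPM. In the gene table (assembly ARS-UCD2.0, not the build of the authors' alignment) both lie wholly within the span of LIPA, which encodes lysosomal acid lipase, whereas IFIT5 overlaps it by 0.261% of its span. All 6 genes inside LIPA, 3 of them protein-coding, had 0 counts in all 20 cows. The same was true of most genes so placed: of 1100 protein-coding genes inside the span of another protein-coding gene, 1004 (91.3%) had 0 counts, against 12.8% of those not so placed. Among the other interferon genes listed, CXCL10 (inside ART3), PNPT1 and IFITM2 were likewise inside another gene and at 0. LIPA itself had 57.9 to 119 CPM and was 1.11 times its median in the cow of the 30 kg calf. How reads that fall on 2 genes were counted is not given in the sources used here, so the zeros of IFIT2 and IFIT3 were not read as absence of their RNA. IFI35 is overlapped over 71.9% of its span by a pseudogene, LOC132343142, and the part of this overlap in its counts was not tested.

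All 7 measured members had a negative slope on calf BW, steepest in IFI27 and IFI6, and none passed the correction for all genes with edgeR. The slope, in log2 units per kg, was estimated in 19 cows without that of the 72.5 kg calf with edgeR's quasi-likelihood test, and the false discovery rate (FDR, Benjamini-Hochberg) was taken over 16206 genes. IFI27 had a slope of -0.076 ± 0.015 (SE; unadjusted p = 7.27e-05, FDR = 0.0976), which is 0.591 times the level per 10 kg. The slope of IFI6 was -0.059 ± 0.012 (p = 0.000116, FDR = 0.0976) by the same edgeR test, or 0.666 times per 10 kg. That of IFI44 was -0.046 ± 0.013 (edgeR FDR = 0.158) and that of IFIT5 -0.031 ± 0.0087 (edgeR FDR = 0.151). IFI16 had a slope of -0.012 ± 0.0042 (edgeR FDR = 0.216). For IFI44L, at -0.011 ± 0.0092 (edgeR FDR = 0.658), and IFI35, at -0.0095 ± 0.0048 (edgeR FDR = 0.387), the slope lay within 2 SE of 0.

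At an edgeR FDR below 0.05, 0 of the 7 members passed, as did 0 of all genes. At an unadjusted p below 0.05, 5 of 7 members passed, all with a negative slope, beside 13.9% of all genes in either direction and 7.08% with a negative slope. All 7 slopes were negative, against 53.4% over all genes, and the median slope of the members was -0.031 against -0.00072 over all genes. With DESeq2, 3 members had an FDR below 0.05 (IFI27, 0.00722, IFI6, 0.0161, and IFIT5, 0.0457), beside 1.31% of the genes to which it gave an FDR.

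Without the library of the 39 kg calf the slopes stayed within 0.001 of these values, but fewer tests passed. The edgeR FDR of IFI27 and IFI6 was then 0.171 for both, and 5 of 7 members had an unadjusted p below 0.05, beside 11.9% of all genes. All 7 slopes stayed negative, against 53.9% over all genes. DESeq2 then gave 2 members an FDR below 0.05, IFI27 (0.0174) and IFI6 (0.0356), and IFIT5 had 0.0801. It called 0.607% of the genes to which it gave an FDR.

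The slopes were smaller when the 30 kg calf's cow was left out. IFI27 had -0.041 ± 0.013 (edgeR p = 0.00426), IFI6 -0.028 ± 0.0085 (edgeR p = 0.00342) and IFIT5 -0.016 ± 0.0075 (edgeR p = 0.0435), and these were the 3 members with an unadjusted p below 0.05, beside 13.6% of all genes. The slope of IFI44 was -0.014 (edgeR p = 0.141). IFI44L changed sign, to 0.0098 (edgeR p = 0.121), so that 6 of 7 slopes were negative, against 53.2% over all genes. The median slope of the members was -0.0143. No member had an FDR below 0.05 with edgeR or DESeq2, where the lowest values were 0.183 and 0.0640, both for IFI6. DESeq2 called 1.18% of the genes to which it gave an FDR.

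Without both libraries, IFI6 had a slope of -0.026 ± 0.0084 (edgeR p = 0.00598, FDR = 0.290) and IFI27 one of -0.038 ± 0.013 (edgeR p = 0.00764, FDR = 0.310). They were the 2 members with an unadjusted p below 0.05, beside 11.5% of all genes. The level per 10 kg was then 0.836 times for IFI6 and 0.770 times for IFI27. IFIT5 had -0.015 (edgeR p = 0.0688), and IFI44L 0.011 (edgeR p = 0.0918). The sign of 6 of the 7 slopes stayed negative, against 53.4% over all genes.

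**Figure D2:**
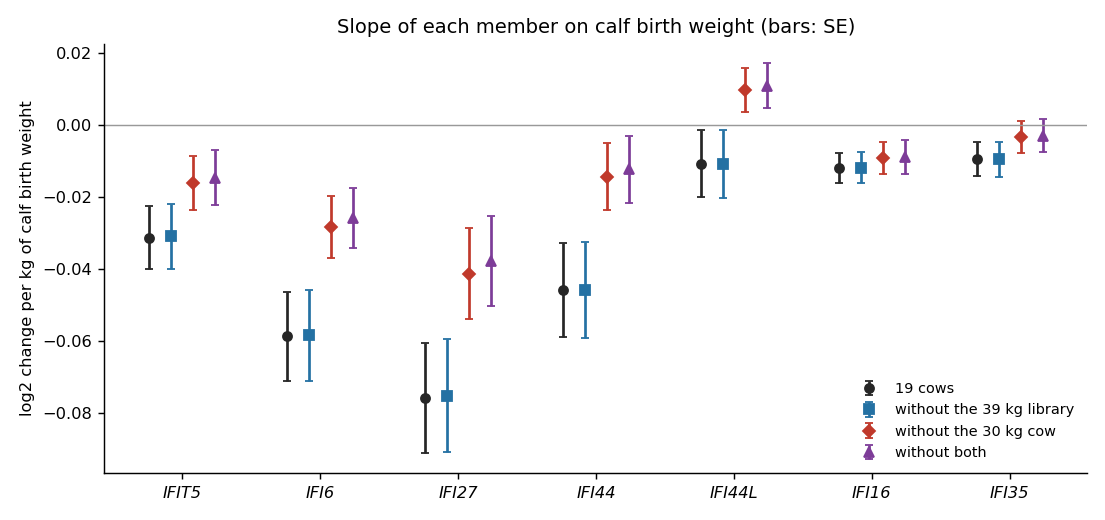
Slope of each member in log2 units per kg of calf birth weight, with bars of 1 SE, in 19 cows, without the library of the 39 kg calf, with the 30 kg calf's cow left out and without both. Leaving out the 30 kg cow moves the slope of IFI27 from -0.076 to -0.041 and that of IFI44L across 0, while leaving out the 39 kg library moves them little.

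Rank correlations, which weigh one high cow less, were strongest in IFI6 and IFI27. In all 20 libraries the Spearman correlation of log2 CPM with calf BW was -0.701 for IFI6 (two-sided permutation p = 0.00087, Pearson r = -0.665, p = 0.00437) and -0.696 for IFI27 (permutation p = 0.00089, Pearson r = -0.615, p = 0.00787). It was -0.609 for IFIT5 (permutation p = 0.00516, Pearson r = -0.660, p = 0.00272). IFI16 had -0.523 (permutation p = 0.0194), IFI44 -0.522 (permutation p = 0.0188) and IFI35 -0.427 (permutation p = 0.0612), and their Pearson correlations were -0.506 (permutation p = 0.0231), -0.499 (permutation p = 0.0365) and -0.519 (permutation p = 0.0223). IFI44L had a value near 0, 0.0962 (permutation p = 0.682, Pearson r = -0.137, p = 0.545). These are 7 relations, and their p-values were not adjusted. Without the library of the 39 kg calf the Spearman correlations were -0.704 (permutation p = 0.00112) for IFI6, -0.686 (permutation p = 0.00145) for IFI27 and -0.595 (permutation p = 0.00881) for IFIT5, and -0.528, -0.504, -0.426 and 0.111 for IFI16, IFI44, IFI35 and IFI44L (permutation p = 0.022, 0.0306, 0.071 and 0.654).

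The relation of IFI6 and IFI27 passed 0.05 without the cows of the extreme calves, with the 39 kg library kept. That library matches a mixture that includes the library of the 30 kg calf, so the removal of this cow was not complete. Correlations without the libraries of the 30, 39 and 72.5 kg calves together were not computed. Without the 2 cows farthest from the median calf BW, those of the 30 and 72.5 kg calves, Pearson r was -0.603 for IFI6 (permutation p = 0.00802) and -0.618 for IFI27 (permutation p = 0.0069). For IFIT5 it was -0.430 (permutation p = 0.0758), for IFI16 -0.418 (permutation p = 0.0815), for IFI44 -0.309 (permutation p = 0.209) and for IFI35 -0.146 (permutation p = 0.562), so that the relation of these 4 no longer passed 0.05. For IFI44L it was 0.339 (permutation p = 0.17). Without the libraries of the 30 and 39 kg calves, the Spearman correlation was -0.651 for IFI6 (permutation p = 0.00422), -0.631 for IFI27 (permutation p = 0.00632) and -0.523 for IFIT5 (permutation p = 0.0276). That of IFI16 was then -0.445 (permutation p = 0.0656) and that of IFI44 -0.416 (permutation p = 0.0867), which no longer passed 0.05, and IFI35 had -0.325 (permutation p = 0.189) and IFI44L 0.307 (permutation p = 0.216).

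**Figure D3:**
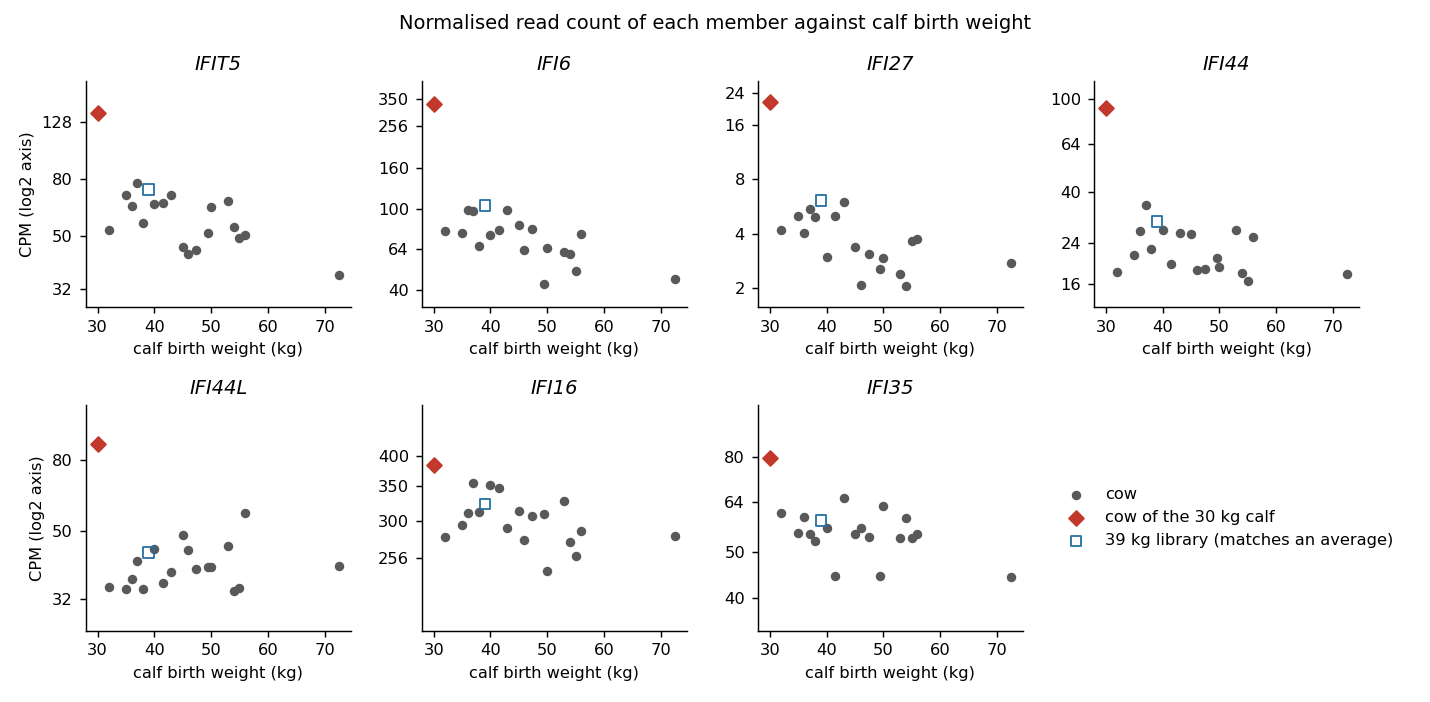
CPM of each member on a log2 axis against calf birth weight in kg, with 1 point per library; the diamond marks the 30 kg calf's cow and the open square the library that matches an average of 9 others. The diamond lies above all other points in every panel, and the remaining points slope downward most in IFI6 and IFI27 and not in IFI44L.

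The members did not vary as 1 block. The median Spearman correlation over their 21 pairs was 0.526 across 20 libraries, from -0.122 to 0.818, and 11 pairs were above 0.5, whereas over all pairs of genes the median was -0.0015 and 3.34% were above 0.5. The closest pairs were IFI44 with IFI16 (0.818), IFI6 with IFI27 (0.791) and IFIT5 with IFI44 (0.750). IFI44 and its neighbour IFI44L had only 0.549, and IFI44L with IFIT5 and IFI27 had 0.0571 and -0.0271. IFI16 and IFI35 had -0.122. Without the library of the 39 kg calf the median was 0.456 with 10 pairs above 0.5, and without those of the 30 and 39 kg calves it was 0.360 with 5 pairs above 0.5, namely IFI44 with IFI16 (0.777), IFI6 with IFI27 (0.713), IFIT5 with IFI44 (0.657), IFIT5 with IFI27 (0.548) and IFI6 with IFI44 (0.538). Of the 21 pairs, 4 were then negative, 3 of them with IFI44L. The points share their library depth and normalization, and the values are a description.

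**Figure D4:**
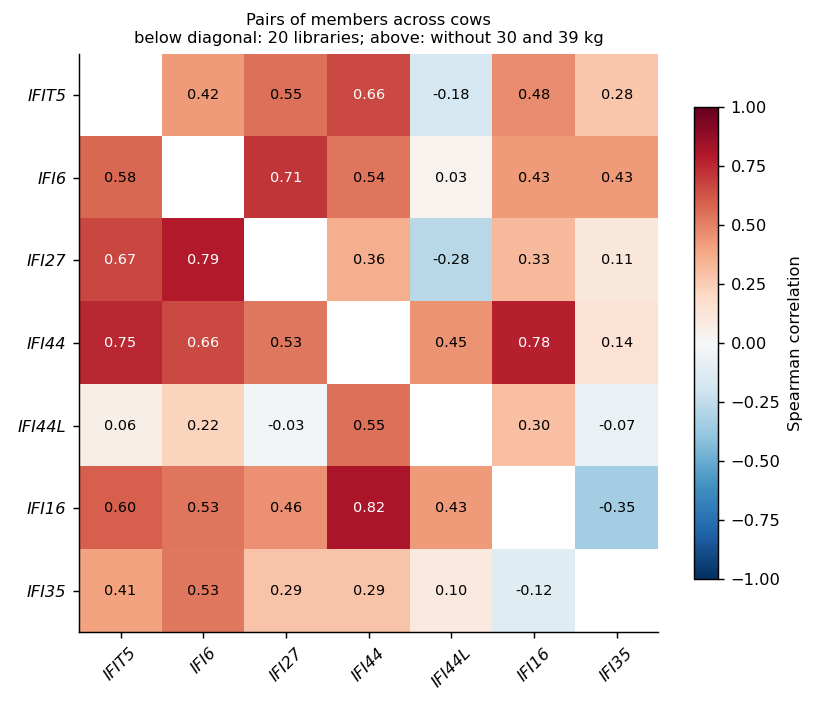
Spearman correlation between members across cows, with all 20 libraries below the diagonal and without those of the 30 and 39 kg calves above it. IFI44 with IFI16 and IFI6 with IFI27 stay the closest pairs in both triangles, while IFI44L and IFI35 stand apart from most others.

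Outside the members, the 10 genes closest to the mean z-score of the 7 members over 20 libraries, by Spearman correlation, were RSAD2 (0.919), MX2 (0.895), OAS1Y (0.889), ISG15 (0.889), TRANK1 (0.887), RIGI (0.848), PML (0.826), PSME2 (0.823), CMPK2 (0.821) and LOC618409 (0.818). RSAD2 encodes viperin, MX2 an antiviral GTPase, OAS1Y a synthetase that activates RNA decay, ISG15 a ubiquitin-like modifier and RIGI a sensor of viral RNA. Of these 10, 7 were in the list of other interferon genes described next. Without the libraries of the 30 and 39 kg calves their correlations were 0.750 to 0.893, RSAD2 having the latter. These 10 genes were taken from the top of a ranking of all genes. The gene named next for each single member is likewise the highest of 16268 ranked. How high the best of so many unrelated genes would reach was not tested, and the values are a description. Taken singly, the closest gene was ZNFX1 for IFIT5 (0.947), PSME2 for IFI6 (0.860), PLSCR2 for IFI27 (0.829), OAS1Y for IFI44 (0.904), PARP12 for IFI44L (0.780), LTV1 for IFI16 (0.862) and PRPF6 for IFI35 (0.871). Without the libraries of the 30 and 39 kg calves the closest gene was again ZNFX1 for IFIT5 (0.930), OAS1Y for IFI44 (0.870) and LTV1 for IFI16 (0.870), and it was NOLC1 for IFI6 (0.835), ANGPTL6 for IFI27 (0.798), WDR37 for IFI44L (0.804) and CTDSP1 for IFI35 (0.901).

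The other genes with family symbols in the table were IFI27L2, IFI30 and IFI47. IFI27L2, a neighbour of IFI27 on chromosome 21, had 12.2 to 27.2 CPM, was highest in the cow of the 30 kg calf (1.45 times the median), and had a slope of -0.022 ± 0.0066 (edgeR p = 0.00374, FDR = 0.175). ISG12(B), the neighbour on the other side of IFI27, was named after its values were seen and had a median of 0.139 CPM, below the filter. IFI30, a lysosomal thiol reductase induced by interferon gamma, had a slope of -0.0081 ± 0.0056 (edgeR FDR = 0.566), and IFI47, a GTPase, one of 0.00031 ± 0.0061 (edgeR FDR = 0.989). How far IFI27 and its relatives, or IFI44 and IFI44L, share sequence was not analysed here. Whether reads were divided between them was not tested.

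The 70 other listed genes of the interferon pathway were read from the same fit by role, and 63 were tested. Among the receptor and signalling genes, IFNAR1, IFNAR2, STAT2 and IRF9 had slopes of -0.0089 to -0.00095 (edgeR FDR = 0.401 to 0.932). The 2 kinases had positive slopes, TYK2 with 0.011 ± 0.0031 (edgeR p = 0.00274, FDR = 0.170) and JAK1 with 0.0058 ± 0.0023 (edgeR p = 0.0182, FDR = 0.256), and were 0.975 and 0.931 times their medians in the cow of the 30 kg calf. Of 11 genes of sensing and induction, 9 had a negative slope, against 53.4% of all genes. Of those 9, 4 had an unadjusted edgeR p below 0.05, IRF7, DHX58, RIGI and CGAS, beside 7.08% of all genes with a negative slope. TBK1 had a positive slope with p below 0.05. IRF7, the factor that amplifies interferon production, had a slope of -0.041 (edgeR FDR = 0.0976). Of the 5 negative regulators, USP18, which shuts off receptor signalling, was the 1 with an unadjusted p below 0.05 (slope -0.029, edgeR FDR = 0.209). Over all genes, 13.9% passed in either direction. With the 30 kg calf's cow left out, 13.6% of all genes had an unadjusted p below 0.05 in either direction. So did 0 of the 5 negative regulators and 3 of the 11 sensing genes, 2 of these with a negative slope and 1 with a positive one. The slopes of USP18, DHX58, RIGI and IRF7 were then -0.0084, -0.0047, -0.011 and -0.023. Without the 39 kg library the counts of these 3 groups at an unadjusted p below 0.05 were those of the 19 cows, beside 11.9% of all genes.

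Among the 40 other effectors tested, 37 had a negative slope, against 53.4% of all genes. An unadjusted edgeR p below 0.05 was reached by 23, all 23 negative, beside 7.08% of all genes. The smallest p-value was that of GBP5, a guanylate-binding protein, with a slope of -0.036 (edgeR FDR = 0.0976); it stayed at -0.034 without the libraries of the 30 and 39 kg calves, where the FDR was 0.226 with edgeR and 0.0153 with DESeq2. The slopes of OAS2 (-0.092), MX2 (-0.089), RSAD2 (-0.083), ISG15 (-0.080) and OAS1Y (-0.072) were larger, with edgeR FDRs of 0.127, 0.0976, 0.109, 0.123 and 0.109. In the cow of the 30 kg calf these 5 genes stood at 11.2, 10.1, 9.17, 8.46 and 5.34 times their medians, GBP5 at 1.55 times. UBE2L6, PML, the core protein of nuclear bodies, and UBA7 completed the 10 smallest p-values, with slopes of -0.029, -0.022 and -0.033. UBE2L6 and UBA7 are the enzymes that activate and transfer ISG15. GBP5, UBE2L6 and IRF7 are among the biomarkers that the study selected for calf BW in these same libraries. Their small p-values and FDRs here are therefore not independent of that selection.

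In all, 54 of the 63 pathway genes had a negative slope, against 53.4% of all genes. At an unadjusted edgeR p below 0.05 there were 28 negative and 3 positive. Of all genes, 7.08% passed with a negative slope and 13.9% in either direction. The cow of the 30 kg calf had the highest value in 34 of the 40 effectors, beside 5.98% of all genes. Without the library of the 39 kg calf, 54 were negative, against 53.9% of all genes, and 26 and 3 passed, beside 11.9% in either direction. Without the libraries of the 30 and 39 kg calves, 48 were negative, against 53.4% of all genes. Then 7 negative and 2 positive passed, 9 of the 63 in all, beside 11.5% of all genes in either direction. The median slope of the list moved from -0.014 to -0.0054, and OAS2, RSAD2 and ISG15 from -0.092, -0.083 and -0.080 to -0.015 each.

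**Figure D5:**
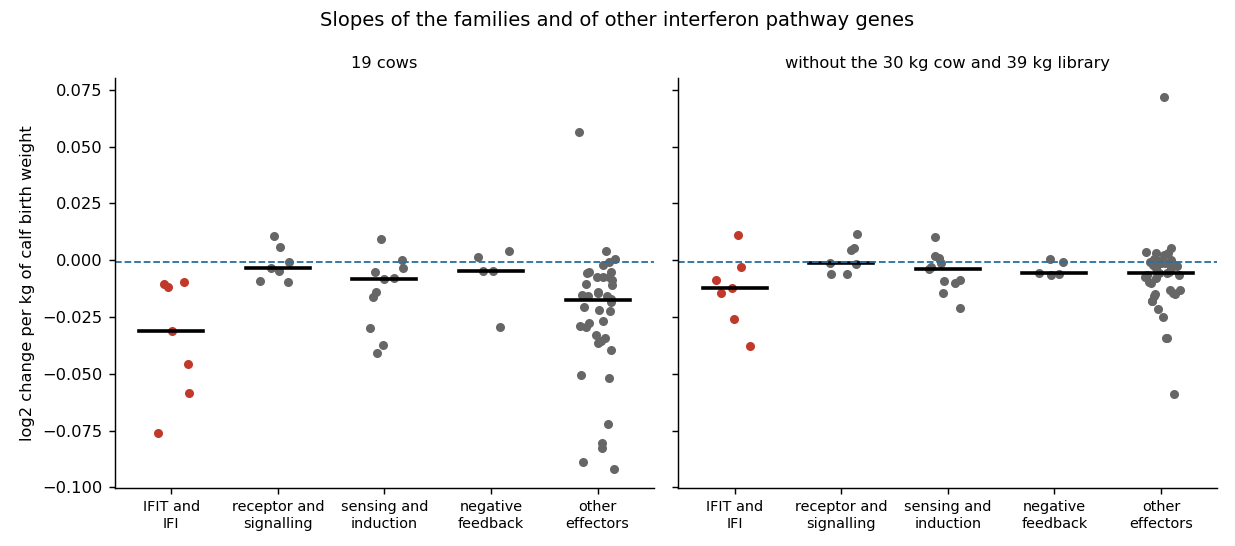
Slopes in log2 units per kg of calf birth weight for the 7 members and for the other interferon pathway genes by role, in 19 cows (left) and without the libraries of the 30 and 39 kg calves (right); black bars are medians and the dashed line is the median of all genes. The members' median lies at -0.031 on the left and at -0.012 on the right, and the effectors draw in toward 0 in the same way.

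Few reads were counted for the interferons themselves. How reads that match several interferon genes were counted is not given in the sources used here, so low counts were not read as absence of RNA. Of 15 interferon genes in the table, 6 had 0 counts in all cows, including IFNT2 and IFNT3, which encode interferon tau. The paper places the secretion of interferon tau by the conceptus earlier than day 63. Only IFNG and IFNE passed the filter, and outside IFNG no gene had over 42 counts in any cow. In the cow of the 30 kg calf, IFNG had 8 counts. Of the type I genes, IFNE had 18 counts there, and IFNB1 and IFNA16 had 0, which allows up to 3 counts each. Of the 9 trophoblast markers found in the table, 7 had 0 counts in all cows and PAG11 had at most 12. PAG1 had 286 to 411 CPM, but its symbol is also that of an adaptor protein of leukocyte membranes, so it was not read as a placental transcript.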

How the data were processed

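RNA-seq of maternal blood was analysed in 20 cows. Per the labels and the paper, the authors used Trimmomatic for trimming, STAR (2.7.0b) with a bosTau 9 index for alignment and featureCounts (Subread 2.0.3) for gene counting, and the deposited values are raw counts per Entrez identifier. The paper names a TruSeq stranded kit and the labels a SMARTer Stranded kit. The strand setting is not given in the sources used here.

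Symbols came from a RefSeq gene table (ARS-UCD2.0). The edgeR (4.0.16, R 4.3.3) quasi-likelihood test with TMM normalization was fitted to BW in 19 cows. Genes needed 10 or more counts in 5 or more cows, and Benjamini-Hochberg adjustment was over all genes. Log2 CPM used a prior count of 0.5. Permutation tests used 100000 resamples. Each library was also fitted as a non-negative mixture of the other 19 (scipy 1.17.1). Alternatives were DESeq2 (1.42.0), limma with voom (3.58.1), robust dispersions, RLE factors, no filter, all 20 cows, rank of BW, covariates and leaving out each cow; leaving out the 39 kg library with DESeq2, or with the cow of the 30 kg calf, was chosen after seeing the data. The steps were tested on simulated counts. The members, lists and rules were chosen with earlier results of these data known. Named genes were all members, family symbols, receptor and signalling genes, the 10 pathway genes with the smallest p and the 10 genes most like the members; LIPA, ISG12(B), the closest gene of single members and pathway genes at 0 were named after their values were seen. The gene table holds no descriptions, so that part of the rule was not applied, and the most abundant marker gene is printed for 4 cell types. Sequences were not analysed here, and 1 pathway gene is not reported here.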

Additional observations from a re-analysis of the deposited data

How the results depend on the processing

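Depth limits IFI27 most. BW, the only variable used, cannot be told apart from recipient age, parity or anything else that differed between these cows. No batch is named in the sources used here. The count of members with FDR below 0.05, 0 with edgeR, was 3 with DESeq2, 2 with no filter on low counts (IFI6 and IFI27) and 2 with DESeq2 without the library of the 39 kg calf. Leaving out each cow in turn gave 0 to 2, the 2 (IFI27, FDR = 0.0339, and IFI6, FDR = 0.0367) without the 32 kg calf's cow. The count of members with unadjusted p below 0.05, 5 in 19 cows, was 3 to 6 with each cow left out, 3 by DESeq2 with the 30 kg calf's cow left out, and 2 without the libraries of the 30 and 39 kg calves by edgeR and also by DESeq2. The median slope of the members ran from -0.0367 (without the 32 kg calf's cow) to -0.0143 (without the 30 kg calf's cow), and was -0.0138 with DESeq2 without the latter cow and -0.0123 and -0.0118 without both libraries by edgeR and DESeq2. The slope of IFI44L ran from -0.0185 to 0.0098 with each cow left out, the positive value being without that of the 30 kg calf, and was also positive there by DESeq2, at 0.0104, and with 0.011 and 0.0115 without both libraries by edgeR and DESeq2. Members with a negative slope were 6 to 7 with each cow left out. The pathway genes with unadjusted p below 0.05, 31 in 19 cows, were 13 to 41, the ends being without the cows of the 30 and 32 kg calves; 13 by DESeq2 with the 30 kg calf's cow left out; and 9 and 10 without both libraries by edgeR and DESeq2. Those with a negative slope were 50 to 56 with each cow left out, 48 by DESeq2 with the 30 kg calf's cow left out, and 48 and 47 without both libraries by edgeR and DESeq2. The median pairwise correlation of the members was 0.447 to 0.533 with each cow left out, 0.647 by Pearson correlation and 0.360 without both libraries; a prior count of 2, RLE factors or residuals after BW moved it by less than its jackknife error. Voom, robust dispersions, RLE factors, all 20 cows, total count, marker scores and rank of BW each left 0 members at FDR below 0.05 and 5 or more at unadjusted p below 0.05. No paired analysis was possible because all libraries belong to 1 group and replicate numbers only follow accession order.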
